A study of Mus musculus with 12 samples.

Results

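The expression of 9 genes of fatty acid synthesis, esterification and transport was compared across irradiated and nonirradiated bone marrow, with and without parathyroid hormone. They are Acly, Acaca, Fasn, Elovl6, Scd1 and Scd2 of the synthesis pathway, Dgat2 of triglyceride assembly, and the fatty acid carriers Fabp4 and Cd36. They were taken by symbol from the deposited expression table, with the row of the highest mean for a gene with several rows, and are 9 of the 19938 genes in it that could be named. All 9 had a row. Acaca had 2 rows and each of the others 1.

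RNA came from whole marrow flushed out of the long bones of B6 mice, which holds blood-forming, stromal, fat and vessel cells together, and was measured on 12 whole-transcript microarrays. Irradiated PTH mice received 2 fractions of 310 cGy, a sub-lethal dose, at 10 days of age and parathyroid hormone (PTH) from day 11 to day 15. Irradiated vehicle mice received the same irradiation, and vehicle over the same days. Nonirradiated PTH mice and nonirradiated vehicle mice received the 5 days of PTH or of vehicle without irradiation. All marrow was taken at 16 days of age, and each group had 3 arrays. The sources used here give no dose of PTH. PTH is a peptide hormone that raises bone formation when given intermittently, and the series asks how irradiation of the marrow alters its actions. Nothing in the labels says that replicate arrays are separate animals. The p-values below therefore rest on the spread among 3 samples a group, part of which may be technical.

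Cells make fatty acids from citrate. Acly cleaves citrate to acetyl-CoA, Acaca carboxylates it to malonyl-CoA, Fasn builds palmitate from these, Elovl6 lengthens palmitate to stearate, and the stearoyl-CoA desaturases Scd1 and Scd2 introduce a double bond. Dgat2 joins the last fatty acid to a diglyceride, Cd36 takes up fatty acids at the cell surface, and Fabp4 binds them inside fat cells, macrophages and endothelial cells. Marrow holds its own fat cells, which are known to increase after irradiation.

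Values are log2 expression, on which a difference of 1 is a doubling, and levels of different genes are not ranked because their probes differ. Precision is limited by the number of arrays, and a contrast of 2 groups had a median standard error of 0.166 over all genes. Xist and the Y-linked gene Kdm5d gave a female pattern in 1 of 3 irradiated PTH arrays, 1 of 3 irradiated vehicle arrays, 3 of 3 nonirradiated PTH arrays and 0 of 3 nonirradiated vehicle arrays. PTH and sex therefore cannot be told apart within the nonirradiated groups. Irradiated and nonirradiated arrays also differ in sex, with fewer female arrays after irradiation in PTH mice and more in vehicle mice. Sex may thus enter the irradiation change in each treatment, and the difference between the 2 changes. Irradiated PTH replicate 3 and nonirradiated vehicle replicate 3 stood apart in the spread of their values, with interquartile ranges of 2.875 and 2.86, against 3.13 to 3.247 on the other 10 arrays. Erythroid marker genes had mean log2 values between 10.67 and 11.53 on irradiated PTH arrays and between 11.11 and 11.50 on the others. In such bulk RNA, fewer cells of a type and less RNA per cell cannot be told apart.

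The promoters of 5 of the 9 genes (Acaca, Acly, Cd36, Elovl6 and Fasn) were in the RefSeq table of assembly GRCm38.p6. The promoters of 3 synthesis enzymes are shown, because the transcript starts used for them lie at or near the annotated gene boundary. Those of Acaca and Cd36 lie 65803 and 53063 bases inside it. Each is the 250 bases before the transcript start used in the table, 5′ to 3′ on the gene's strand. They lie at chr11:120824548-120824797 (minus strand) for Fasn, at chr11:100528001-100528250 (minus strand) for Acly and at chr3:129532136-129532385 (plus strand) for Elovl6. Capitals mark CCAAT, the box bound by NF-Y, on either strand.
Fasn: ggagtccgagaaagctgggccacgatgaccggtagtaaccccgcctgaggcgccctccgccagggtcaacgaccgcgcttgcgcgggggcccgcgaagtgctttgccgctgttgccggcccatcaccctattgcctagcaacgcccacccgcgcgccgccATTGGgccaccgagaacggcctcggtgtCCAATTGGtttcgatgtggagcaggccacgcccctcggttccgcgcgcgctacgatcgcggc
Acly: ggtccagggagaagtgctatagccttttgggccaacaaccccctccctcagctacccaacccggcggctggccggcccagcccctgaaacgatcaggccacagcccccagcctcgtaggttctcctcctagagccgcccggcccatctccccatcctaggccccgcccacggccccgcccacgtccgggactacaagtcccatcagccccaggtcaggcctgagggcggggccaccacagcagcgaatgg
Elovl6: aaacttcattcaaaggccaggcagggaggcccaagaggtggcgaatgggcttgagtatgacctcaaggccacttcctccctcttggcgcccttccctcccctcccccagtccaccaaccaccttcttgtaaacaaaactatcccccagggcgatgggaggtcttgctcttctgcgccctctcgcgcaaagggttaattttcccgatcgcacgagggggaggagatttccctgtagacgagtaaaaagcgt
The Fasn window, whose start lies 619 bases inside the annotated gene, holds CCAAT on the opposite strand at -90 to -86, on the gene's strand at -62 to -58, and again on the opposite strand at -59 to -55, and the last pair overlaps. Positions are counted back from the start, with -1 the base next to it. CCAAT occurred on either strand in 33.8% of 32851 windows of the same length in the table. The Acly window holds 4 copies of GGGCGG, the GC box, on either strand, a motif found in 32.7% of all windows. Neither motif occurred in the Elovl6 window, and CACGTG (6.02% of all windows), TCACNCCAC (1.05%) and TATAAA (12.4%) occurred in none of these 3. The Fasn and Acly windows had a GC content of 69.2% and 68.8%, against 56.4% for Elovl6.

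Irradiation raised 2 of the 9 genes, Scd1 and Fabp4, and did so in PTH mice as well as in vehicle mice. Averaged over both treatments, Scd1 was 3.22-fold and Fabp4 2.53-fold higher after irradiation. The other 7 genes did not pass the test in either treatment. Among all genes tested, 2.43% were called in PTH mice and 2.22% in vehicle mice at an adjusted p under 0.05 in the limma fit (moderated test, Benjamini-Hochberg), and 0.692% and 1.21% of all genes were called higher. Scd1 and Fabp4 passed under all the alternative settings and left-out arrays that were run.

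Scd1, the desaturase that makes oleate, had log2 values of 12.21, 11.83 and 11.46 on the irradiated PTH arrays and 12.62, 12.45 and 12.34 on the irradiated vehicle arrays. It had 10.03, 9.87 and 10.26 on the nonirradiated PTH arrays and 11.14, 11.05 and 10.45 on the nonirradiated vehicle arrays. Every irradiated array lay above every nonirradiated one, and no 2 of the 4 groups overlapped. From high to low the group means ran irradiated vehicle, irradiated PTH, nonirradiated vehicle and nonirradiated PTH. The log2 change with irradiation was 1.78 ± 0.215 (SE) in PTH mice (3.44-fold, adjusted p = 0.00102) and 1.59 ± 0.215 in vehicle mice (3.01-fold, adjusted p = 0.00232). The 2 changes differed by 0.19 ± 0.304, a difference that did not pass (interaction, adjusted p = 0.847, limma). Its size varied, from 0.01 to 0.41 with 1 array left out, to 0.58 with sex as a term and 0.59 without both narrow-range arrays (adjusted p = 1 and 0.999).

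Fabp4, the fatty acid binding protein used as a marker of fat cells, had log2 values of 11.45, 11.45 and 11.77 on the irradiated PTH arrays and 11.64, 11.72 and 11.84 on the irradiated vehicle arrays. On the nonirradiated PTH arrays it had 10.12, 10.18 and 10.54, and on the nonirradiated vehicle arrays 10.41, 10.30 and 10.26. The irradiated arrays all lay above the nonirradiated ones, while the PTH and vehicle arrays overlapped within each pair. The log2 change was 1.28 ± 0.142 in PTH mice (2.42-fold, adjusted p = 0.000517) and 1.41 ± 0.142 in vehicle mice (2.65-fold, adjusted p = 0.000516), again by limma over all genes. In the order of levels, the neighbouring irradiated PTH and irradiated vehicle means differed by -0.17, and the nonirradiated PTH and nonirradiated vehicle means by -0.04.

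**Figure D1:**
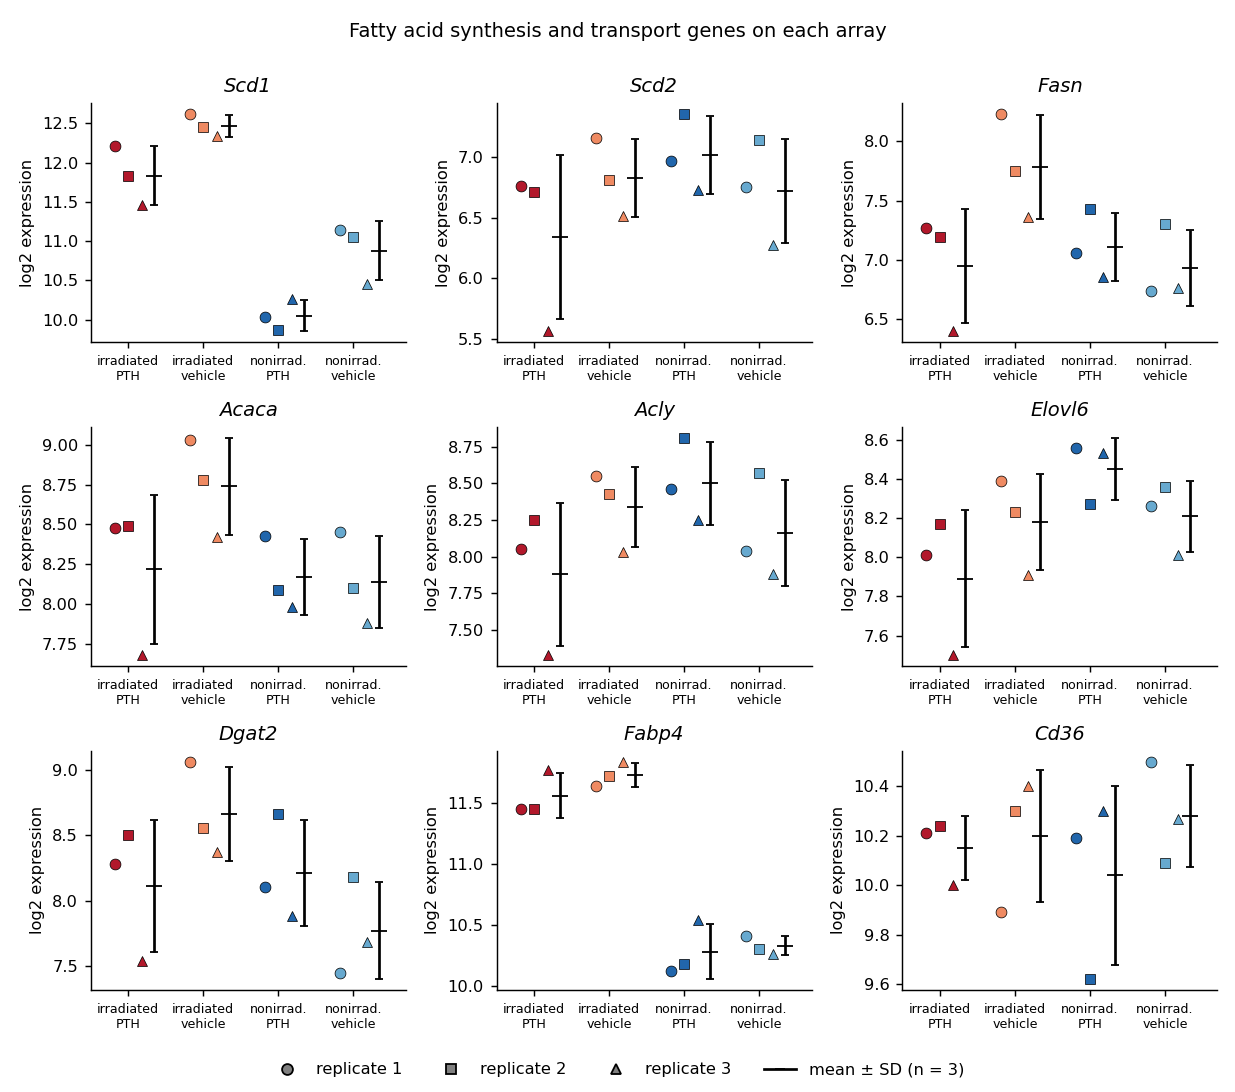
Log2 expression of each gene on each array (vertical axis, its own range for every gene) by group (horizontal axis), with circles, squares and triangles for replicates 1, 2 and 3 and a bar for the mean ± SD of 3 arrays. Scd1 and Fabp4 split by irradiation with no overlap, Cd36 shows no such split, and irradiated PTH replicate 3 is the lowest of all 12 arrays for Scd2, Fasn, Acaca, Acly and Elovl6.

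Scd1 and Fabp4 were each set beside another of the genes compared that did not pass, Scd1 beside Scd2 and Fabp4 beside Cd36. Cd36 is a surface receptor and not a binding protein like Fabp4. Fabp5, the binding protein closest to Fabp4, did pass in both treatments, as given below. Scd2, the desaturase most studied in brain and in young mice, had 6.76, 6.71 and 5.56 on the irradiated PTH arrays, 7.16, 6.81 and 6.51 on the irradiated vehicle arrays, 6.97, 7.36 and 6.73 on the nonirradiated PTH arrays and 6.75, 7.14 and 6.27 on the nonirradiated vehicle arrays. All 4 groups overlapped. Its log2 change with irradiation was -0.68 ± 0.323 in PTH mice (adjusted p = 0.39), -0.29 there without irradiated PTH replicate 3, and 0.11 ± 0.323 in vehicle mice (adjusted p = 0.921). Within each array, Scd1 minus Scd2 ranged from 5.13 to 5.90 on the 6 irradiated arrays and from 2.51 to 4.39 on the 6 nonirradiated arrays. The means of that difference, 5.57 ± 0.284 and 3.60 ± 0.714 (SD, n = 6 arrays each), were 1.97 apart.

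Cd36, the surface receptor for long-chain fatty acids, had 10.21, 10.24 and 10.00 on the irradiated PTH arrays, 9.89, 10.30 and 10.40 on the irradiated vehicle arrays, 10.19, 9.62 and 10.30 on the nonirradiated PTH arrays and 10.50, 10.09 and 10.27 on the nonirradiated vehicle arrays. The 4 groups overlapped. Its log2 change with irradiation was 0.11 ± 0.194 in PTH mice and -0.09 ± 0.194 in vehicle mice (adjusted p = 0.849 and 0.887). Fabp4 minus Cd36 ranged from 1.21 to 1.77 on the irradiated arrays and from -0.08 to 0.56 on the nonirradiated arrays, and the means were 1.33 apart. Both pairs were chosen with results known, so these within-array differences are given as a description without a test, and their own size, which depends on the probes, carries no meaning apart from the contrast of irradiated and nonirradiated arrays.

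The enzymes upstream of the desaturases, and Dgat2 downstream, did not pass. Fasn had 7.27, 7.19 and 6.40 on the irradiated PTH arrays and 8.23, 7.75 and 7.36 on the irradiated vehicle arrays, against 7.06, 7.43 and 6.86 on the nonirradiated PTH arrays and 6.74, 7.30 and 6.76 on the nonirradiated vehicle arrays. Its irradiated vehicle arrays all lay above the nonirradiated vehicle arrays, while the PTH arrays overlapped. The log2 change was -0.16 ± 0.276 in PTH mice and 0.85 ± 0.276 in vehicle mice (adjusted p = 0.845 and 0.167), and neither passed. Dgat2 had the same arrangement. It had 8.28, 8.50 and 7.54 on the irradiated PTH arrays, 9.06, 8.55 and 8.37 on the irradiated vehicle arrays, 8.10, 8.66 and 7.88 on the nonirradiated PTH arrays and 7.45, 8.18 and 7.68 on the nonirradiated vehicle arrays. Its change was -0.10 ± 0.29 in PTH mice and 0.89 ± 0.29 in vehicle mice (adjusted p = 0.918 and 0.171).

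Acaca had 8.48, 8.49 and 7.68 on the irradiated PTH arrays, 9.03, 8.78 and 8.42 on the irradiated vehicle arrays, 8.43, 8.09 and 7.98 on the nonirradiated PTH arrays and 8.45, 8.10 and 7.88 on the nonirradiated vehicle arrays. The lowest irradiated vehicle array lay just under the highest nonirradiated vehicle array. The change was 0.05 ± 0.243 in PTH mice and 0.60 ± 0.243 in vehicle mice (adjusted p = 0.954 and 0.299). Acaca was the only one of the 7 to pass under any alternative. With array weights, which give noisier arrays less influence, its change in vehicle mice was 0.66 with an adjusted p of 0.0486. The dimmer Acaca row averaged 7.05 on irradiated PTH arrays, 7.47 on irradiated vehicle arrays, 6.79 on nonirradiated PTH arrays and 7.06 on nonirradiated vehicle arrays, so both rows had their highest mean in irradiated vehicle mice.

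Acly and Elovl6 lie at either end of this stretch of the pathway. Acly averaged 7.88 ± 0.486, 8.34 ± 0.272, 8.50 ± 0.281 and 8.16 ± 0.361 (SD, n = 3 each) in irradiated PTH, irradiated vehicle, nonirradiated PTH and nonirradiated vehicle mice, and all groups overlapped, irradiated PTH and nonirradiated PTH only at 8.25. Elovl6 averaged 7.89 ± 0.349, 8.18 ± 0.245, 8.45 ± 0.16 and 8.21 ± 0.181 in the same order. Elovl6 was the one gene whose irradiated PTH arrays (7.50 to 8.17) all lay below the nonirradiated PTH arrays (8.27 to 8.56), with a change of -0.56 ± 0.188 that did not pass (adjusted p = 0.189). In vehicle mice the changes of Acly and Elovl6 were 0.17 and -0.03.

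**Figure D2:**
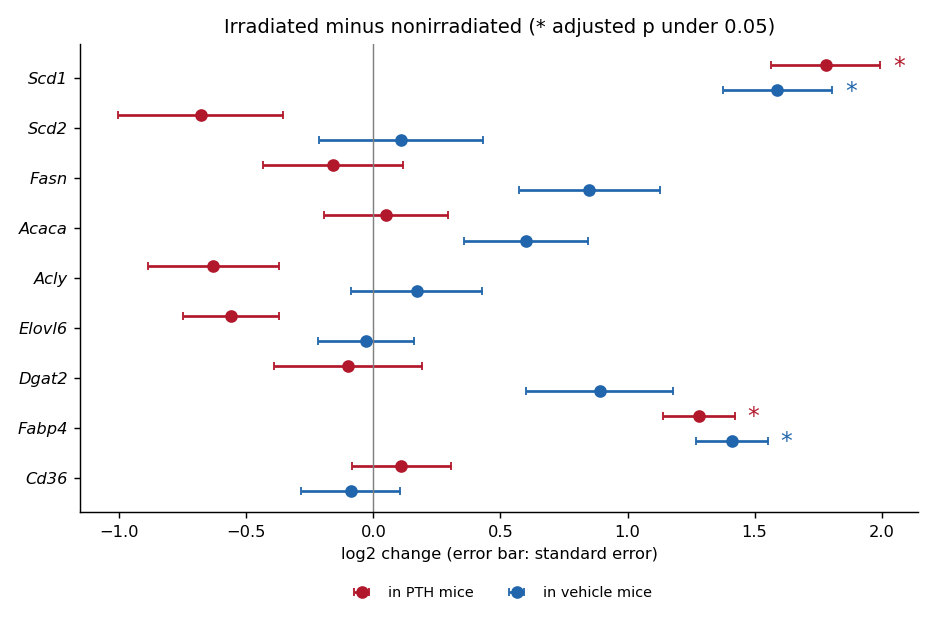
Log2 change of each gene, irradiated minus nonirradiated (horizontal axis), in PTH mice (red) and vehicle mice (blue), with standard errors as bars and an asterisk for an adjusted p under 0.05. Scd1 and Fabp4 lie between 1.28 and 1.78 in both treatments, and the other 7 genes lie between -0.68 and 0.89 without passing.

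Over the 9 genes the median log2 change with irradiation was -0.10 in PTH mice, against 0.01 over all genes, and 0.60 in vehicle mice, against -0.03 over all genes. The PTH-mouse median turned on 1 array: without irradiated PTH replicate 3 it was 0.18, with 3 negative genes in place of 5. Groups did not overlap for 2 genes upward (Scd1 and Fabp4) and 1 downward (Elovl6) in PTH mice, where 8.93% and 10.9% of all genes were so placed. In vehicle mice 4 genes were placed upward (Scd1, Fabp4, Fasn and Dgat2), against 8.95% of all genes. Averaged over both treatments, irradiation again called 2 of 9, Scd1 (1.69 ± 0.152) and Fabp4 (1.34 ± 0.1), against 6.1% of all genes. The next largest averaged changes were 0.39 for Dgat2, 0.34 for Fasn and 0.32 for Acaca (adjusted p = 0.374, 0.428 and 0.384).

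The second question is what PTH did. None of the 9 genes passed for PTH in irradiated or in nonirradiated mice by limma's adjusted p, and 0% of all 19938 genes were called in either comparison. At an unadjusted p under 0.05, 3.81% of all genes passed in irradiated mice and 1.79% in nonirradiated mice. Of the 9 genes, 2 reached that level in irradiated mice, Fasn and Scd1, and 1 in nonirradiated mice, Scd1. Replicate numbers were treated as pairing the irradiated arrays. No label states this pairing, and it was adopted because deviations of same-numbered arrays correlated positively in these same data. Number 2 gave only 0.144. Irradiated vehicle replicate 2 reached 0.177 with irradiated PTH replicate 1, and irradiated PTH replicate 2 reached 0.396 with irradiated vehicle replicate 1. The values therefore do not single out the number 2 arrays as a pair. A count with the block is therefore a description and adds no independent support. With the number as a block in these 2 groups 6 of the 9 reached an unadjusted p under 0.05 in irradiated mice, where 9.73% of all genes did. They were Fasn, Scd1, Acaca, Dgat2, Acly and Scd2, and the lowest adjusted p was 0.442, for Fasn.

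In irradiated mice all 9 log2 differences, PTH minus vehicle, were negative. These differences use the same irradiated vehicle arrays as the irradiation changes in vehicle mice. The values ran from -0.83 for Fasn and -0.64 for Scd1 to -0.17 for Fabp4 and -0.05 for Cd36, with a median of -0.49 against 0.01 over all genes. Dgat2, Acaca, Scd2, Acly and Elovl6 lay in between, at -0.55, -0.52, -0.49, -0.46 and -0.28. A lean downward was not particular to these genes. All 8 muscle genes were negative (median -0.35), as were 10 of 12 B-lineage genes (-0.35) and 10 of 12 macrophage markers (-0.26). Other lists leaned upward, with all 7 megakaryocyte genes positive (0.22) and a median of 0.06 for 11 proliferation genes. Fasn and Scd1 had unadjusted p values of 0.0112 and 0.0118 in the limma fit and an adjusted p of 0.844. Both had all their PTH arrays below all their vehicle arrays, a placement that 4.25% of all genes shared.

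Most of these differences were smaller without 1 array. Irradiated PTH replicate 3, 1 of the 2 arrays with a narrow range, was the lowest of its group for 8 of the 9 genes and the highest for Fabp4. Of all genes, 41.9% were lowest of the group on that array, and of 4755 genes with mean levels in the range of the 6 dimmer members, 59.2% were. It was the lowest of all 12 arrays for 5 of the 9, against 22.7% of all genes. Without it, the difference was -0.55 for Fasn, -0.45 for Scd1, -0.27 for Dgat2, -0.25 for Acaca, -0.19 for Acly, -0.10 for Scd2 and -0.09 for Elovl6, and the median was -0.25. Fabp4 stood at -0.28, farther from 0, and Cd36 stood at 0.03. Irradiated vehicle replicate 3, with the same number, was also the lowest of its group for 7 of the 9. Taken pair by pair, with the pairing drawn from these same data, 8 of the 9 had PTH below vehicle in all 3 pairs. So did 16.4% of all genes, and Cd36 did not. Fasn differed by -0.96, -0.55 and -0.97 and Scd1 by -0.41, -0.62 and -0.88 in pairs 1, 2 and 3, and over pairs 1 and 2 alone the means were -0.76 and -0.52. The part of that array's narrow range in the differences was not tested beyond these values.

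**Figure D3:**
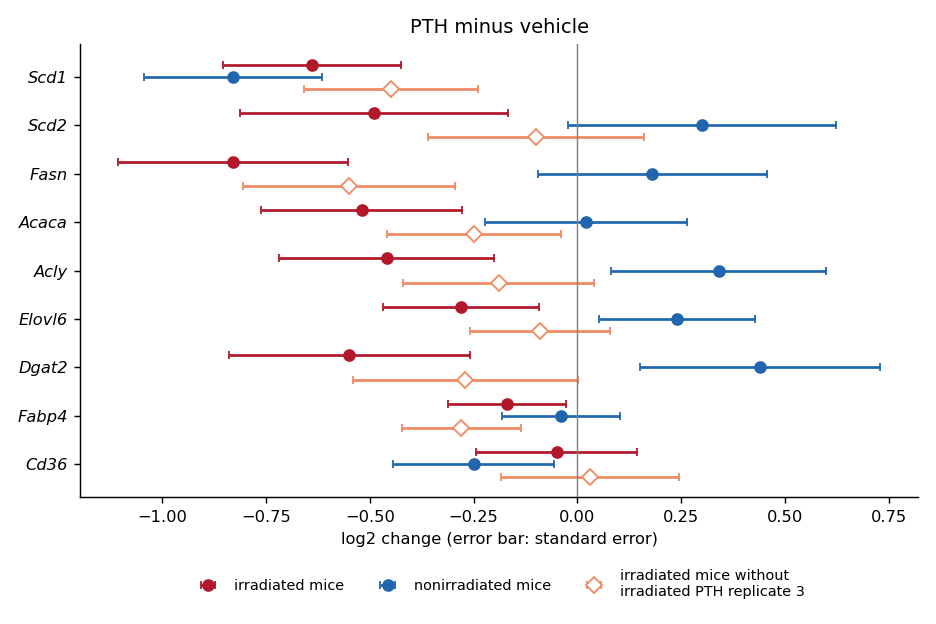
Log2 difference of each gene, PTH minus vehicle (horizontal axis), in irradiated mice (red), in nonirradiated mice (blue) and in irradiated mice without irradiated PTH replicate 3 (open diamonds), with standard errors as bars. All 9 red points lie below 0, the diamonds lie nearer to 0 than the red points for every gene but Fabp4, and no gene passed at an adjusted p under 0.05.

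In nonirradiated mice Scd1 had the largest of the 9 differences with PTH, -0.83 ± 0.215, and its PTH arrays (9.87 to 10.26) lay below its vehicle arrays (10.45 to 11.14). The unadjusted p was 0.00225 and the adjusted p was 1 in the limma fit, and 3.62% of all genes had groups so placed. Female and male arrays coincide with PTH and vehicle here. With sex as a term, estimated from the irradiated groups that hold both, the Scd1 difference was -1.22 with an adjusted p of 1. The other 8 genes ran from -0.25 for Cd36 to 0.44 for Dgat2, with the groups of each overlapping.

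The estimated difference between the irradiation effects, PTH mice minus vehicle mice, was -1.01 ± 0.391 for Fasn, -0.99 ± 0.411 for Dgat2 and -0.80 ± 0.365 for Acly. Their unadjusted p values in the limma fit were 0.0237, 0.033 and 0.0487, a level that 5.49% of all genes reached. None of the 9 passed at the adjusted threshold, where these 3 had 0.732 and 0% of all genes were called. Without irradiated PTH replicate 3 the Fasn, Dgat2 and Acly values were -0.73, -0.71 and -0.53. With sex as a term they were -0.44, -0.56 and -0.51, and with array weights -0.58, -0.45 and -0.43.

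The genes also varied together within groups. Deviations of each array from its group mean correlated among Scd2, Fasn, Acaca, Acly, Elovl6 and Dgat2 in all 15 pairs, with Pearson r between 0.51 and 0.96 and a median of 0.77 over 12 arrays, both genes of a pair being read from the same array. Scd1 followed these genes less closely, with r between 0.27 and 0.75. Fabp4 ran against them, with r between -0.75 and -0.46 and a median of -0.69, and Cd36 had r between -0.59 and 0.14 and a median of -0.35. Without irradiated PTH replicate 3, the 15 pairs had r between 0.17 and 0.93 and a median of 0.53, Fabp4 had r between -0.62 and -0.10, and Scd1 between -0.10 and 0.60. Cd36 then ran most against the 6, with r between -0.95 and -0.05 and a median of -0.76, against a median of -0.48 for Fabp4. Irradiated vehicle replicate 1 was the highest of all 12 arrays for 4 of the 9 genes (Scd1, Fasn, Acaca and Dgat2), against 10.9% of all genes. These correlations are descriptions over few arrays and carry no test. No background of pairs of other genes is given, so they are not shown to be particular to this pathway. On irradiated PTH replicate 3, 59.2% of genes in the range of the 6 dimmer members were lowest of their group.

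**Figure D4:**
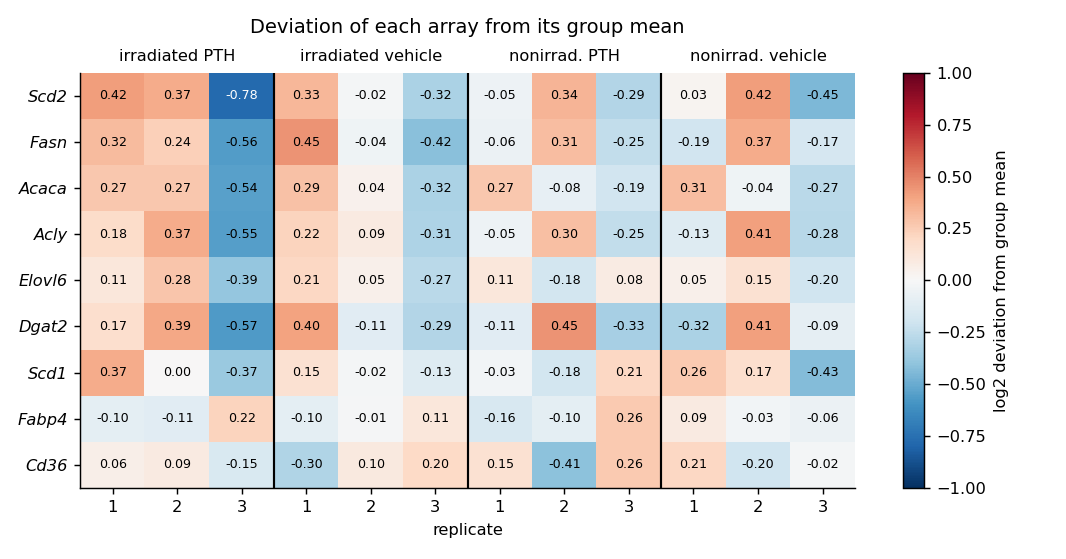
Deviation of each array from its group mean, in log2 units (colour, with the value printed), for the 9 genes (rows) and the 12 arrays by group and replicate (columns). Irradiated PTH replicate 3 is between -0.78 and -0.39 for Scd2, Fasn, Acaca, Acly, Elovl6 and Dgat2 and at 0.22 for Fabp4.

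Over the 12 arrays, the genes most like Scd1 by Pearson r were Cidec, a lipid droplet protein of fat cells, with r = 0.97, then Cyp2f2 (0.96) and Tjp1 (0.95). Fabp4 was most like Ccl12, Adh6b and Socs2 (each 0.98). Fasn was most like Xylb, Mthfd1 and Stab1 (each 0.97), Dgat2 most like Hyou1 (0.98), Csf2rb and Ampd2 (each 0.97), and Acaca most like Nrp1 (0.97). Acly was most like Aldh2 (0.99), Scd2 most like Strada (0.98), Elovl6 most like Tmtc4 (0.97) and Cd36 most like Cnep1r1 (0.94). The mean of the 9 standardised genes was most like Ralgds (0.97), followed by Wars, Hunk and Ddx24 (each 0.96) and Acp2 (0.95). These likenesses were taken over all 4 groups and so include the differences between them.

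Few of the other genes of the pathway passed. Of 18 other genes of fatty acid synthesis, elongation and their control, irradiation raised 1 in PTH mice (Me1, the malic enzyme that supplies NADPH, 1.36) and 2 in vehicle mice (Thrsp, a lipogenic regulator of liver and fat, 1.96, and Me1, 1.33). The median change of the list was 0.00 in PTH mice and 0.33 in vehicle mice. Thrsp was at 1.15 in PTH mice with an adjusted p of 0.0602 by limma. The sterol-responsive factor Srebf1 stood at -0.07 in PTH mice and 0.22 in vehicle mice, the glucose-responsive factor Mlxipl at 0.38 and 0.53, and the sterol sensor Insig1 at -0.03 and 0.61, none of which passed. The calls of Me1 held in 8 of 12 fits that each left out 1 array, in PTH mice and in vehicle mice alike. The liver X receptor Nr1h3 (0.41, adjusted p = 0.0283) and Pparg, the fat cell regulator that drives Fabp4 (0.40, adjusted p = 0.0435), passed only in the irradiation effect averaged over treatments. Nr1h3 kept that call in 12 of 20 alternatives and Pparg in 6 of 21.

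Among 17 other genes of fatty acid uptake, binding and activation, 1 rose in each treatment. This was Fabp5, the binding protein closest to Fabp4 in fat cells and macrophages, with 1.70 ± 0.261 in PTH mice (adjusted p = 0.00465) and 2.19 ± 0.261 in vehicle mice (adjusted p = 0.0011). The list's median was -0.01 in PTH mice and -0.08 in vehicle mice. Averaged over treatments 2 of the 17 rose, Fabp5 and Lpl, and each kept that call in 21 of 21 alternatives, where Lpl changed by 0.67 to 0.87. Of 14 genes of triglyceride assembly, the pathway that Dgat2 completes, Gpd1 rose in PTH mice (0.78) while the acyltransferases Gpam (-1.06) and Gpat3 (-0.66) fell. In vehicle mice Gpd1 (1.25) and Pck1 (1.51), which supply glycerol phosphate, rose, and Gpam (-0.61, adjusted p = 0.207) and Gpat3 (-0.52, adjusted p = 0.0926) lay lower without passing in limma. Averaged over treatments both fell, Gpam by 0.84 and Gpat3 by 0.59, and kept that call in 21 of 21 alternatives. In PTH mice the calls of Gpd1, Gpam and Gpat3 held in 1, 7 and 6 of 12 fits that each left out 1 array, and the vehicle call of Pck1 was lost without irradiated vehicle replicate 2. PTH passed for 0 genes of these 3 lists in irradiated mice, where their medians were -0.40 for synthesis, 0.04 for uptake and -0.31 for triglyceride assembly.

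**Figure D5:**
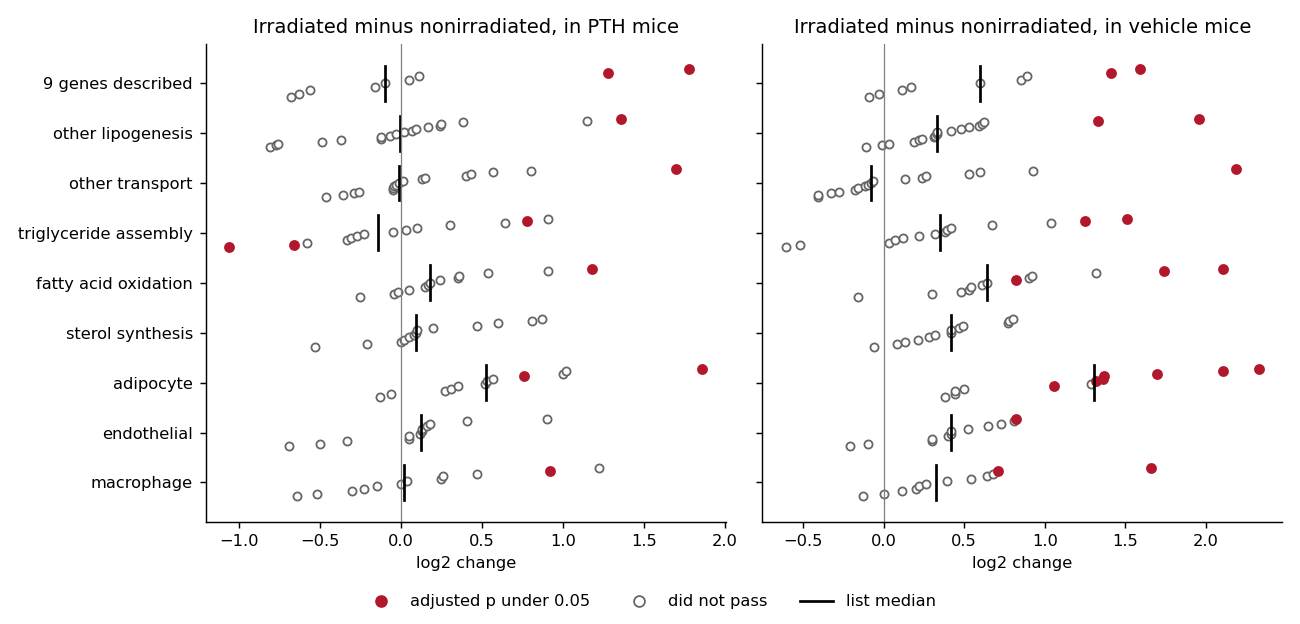
Log2 change, irradiated minus nonirradiated (horizontal axis), of every measured gene in the lists named on the left, in PTH mice (left panel) and vehicle mice (right panel). Filled red points passed at an adjusted p under 0.05, open points did not, and the vertical bar is the list's median, which for fat cell markers was 0.53 in PTH mice and 1.31 in vehicle mice.

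Markers of 3 cell types that use these genes were compared. Of 12 fat cell markers, irradiation raised 2 in PTH mice (Cidec 1.86 and Plin1 0.76) and 7 in vehicle mice. Those raised in vehicle mice included Cidec (2.33), Adipoq (1.70), Plin1 (1.36), Adig and Aqp7. The mean log2 level of the 12 markers per array ranged from 6.90 to 7.34 in irradiated PTH mice and from 7.66 to 7.94 in irradiated vehicle mice. It ranged from 6.44 to 6.60 in nonirradiated PTH mice and from 6.48 to 6.71 in nonirradiated vehicle mice. Every irradiated array therefore lay above every nonirradiated one, as for Scd1 and Fabp4. The mean of the 17 uptake genes was split in the same way. It was 6.38 to 6.49 in irradiated PTH mice and 6.42 to 6.43 in irradiated vehicle mice. In nonirradiated PTH and nonirradiated vehicle mice it was 6.24 to 6.31 and 6.23 to 6.33. All 12 fat cell markers were negative for PTH in irradiated mice, with a median of -0.68 and 0 passing. At an unadjusted p under 0.05 in limma there were 8, against 3.81% of all genes, and 5 had PTH arrays below all vehicle arrays, against 4.25%. The median without irradiated PTH replicate 3 is not given for this list. Of 12 macrophage markers, 1 rose in PTH mice (Marco 0.92) and 2 in vehicle mice (Cd5l 1.66 and Marco 0.71), with mean levels of 7.96 to 8.66 in irradiated PTH mice, 8.55 to 8.81 in irradiated vehicle mice, 8.24 to 8.36 in nonirradiated PTH mice and up to 8.39 (median 8.24) in nonirradiated vehicle mice. Of 12 endothelial markers, 0 passed in PTH mice and 1 in vehicle mice (Ramp2 0.82), with levels of 7.56 to 8.26, 7.99 to 8.34, 7.77 to 8.02 and 7.59 to 7.97 in the same order. Leaving out 1 array in turn, the vehicle calls of Adipoq, Cd5l, Marco and Ramp2 held in 8, 3, 3 and 4 of 12 fits. Those of Cidec, Plin1, Adig and Aqp7 held in all 12. The part of each cell type in the levels of Scd1 and Fabp4 was not tested.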

How the data were processed

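Total RNA of 12 marrow samples was amplified from 100 ng, biotin-labelled and hybridised to whole-transcript arrays. The submitters' processing notes name affy, RMA and limma without roles or versions. The authors' deposited table is on a log2 scale, as judged from its values and from RMA being named (background correction, quantile normalization and median polish). The sources used here give neither the genome build nor whether the 12 arrays were normalized as 1 set.

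Of 35556 rows, 21789 had 1 gene symbol in the platform annotation, 1621 had several and 12146 were not listed, and the last 2 kinds were not used. Symbols were updated through RefSeq's table of GRCm38.p6, and 91 rows without a match kept their symbol. Rows with 1 symbol gave 19938 genes, of which 999 had several rows and were given by the row of the highest mean.

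The model (limma 3.58.1, R 4.3.3) had 4 group means over all 12 arrays (8 residual degrees of freedom), with default empirical Bayes moderation and Benjamini-Hochberg adjustment over all genes at 0.05. The fit was tested on simulated data. The members, the 15 gene lists (201 entries, 178 measured, 23 not analysed here) and the tests were chosen with earlier results of these data known. Named genes are the 9 members, genes of small p from the lists, 5 regulators, and the genes with the highest r to each profile, predicted genes passed over. No label states a pairing by replicate number. Between the irradiated groups, deviations of same-numbered arrays from their group means correlated at 0.144 to 0.57 (other numbers -0.509 to 0.396), so the numbers were treated as pairing them there, and in no other pair of groups. Replicate 1 of both irradiated groups has the female pattern. Alternatives covered moderation, array weights, scaling, filtering, row choice, sex, narrow-range arrays, replicate block and each array left out.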

Additional observations from a re-analysis of the deposited data

How the results depend on the processing

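The number of the 9 genes that passed moved by no more than 1 in any comparison in 131 recomputed counts. Scd1 and Fabp4 kept their irradiation calls throughout, with a highest adjusted p of 0.0149 and 0.0192. Array weights added Acaca (0.66 in vehicle mice, 0.44 averaged). The replicate number as a block changed no call of the 9: in the irradiated groups alone it gave Fasn -0.83 and Scd1 -0.64 (adjusted p = 0.442 and 0.507), and 1 of all genes was called.

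Signs turned for small changes that did not pass. For irradiation in vehicle mice Scd2 was -0.05 with array weights, -0.02 centred on housekeeping genes, -0.08 with sex and -0.12 without both narrow-range arrays, and Cd36 was 0.04 with array weights. In PTH mice Fasn was 0.13, 0.22 and 0.12 and Dgat2 0.23, 0.18 and 0.18 with array weights, with sex and without the narrow-range arrays, and Cd36 was -0.01 with sex. Averaged, Cd36 was -0.04 with quantile normalization repeated, -0.05 on housekeeping genes and -0.02 with sex. For PTH in irradiated mice Cd36 was 0.03 on housekeeping genes and 0.03 without the narrow-range arrays. For PTH in nonirradiated mice sex gave Scd2 -0.27, Fasn -0.39, Acaca -0.39, Elovl6 0.00 and Fabp4 0.11, Fasn was -0.02 with array weights, and Acaca was -0.04 by quantile, -0.03 on housekeeping genes, -0.12 as the mean of its rows and -0.11 without the narrow-range arrays. The Fabp4 interaction was 0.00 on housekeeping genes. The causes were not tested.

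Leaving out 1 array at a time, the irradiation change in vehicle mice ran from -0.12 to 0.31 for Scd2, -0.14 to 0.10 for Elovl6 and -0.19 to 0.06 for Cd36. In PTH mice it ran from -0.32 to 0.12 for Fasn, -0.09 to 0.32 for Acaca, -0.30 to 0.18 for Dgat2 and -0.09 to 0.24 for Cd36, and averaged from -0.09 to 0.09 for Cd36. PTH in irradiated mice ran from -0.20 to 0.05 for Cd36, PTH in nonirradiated mice from -0.11 to 0.18 for Acaca and -0.17 to 0.04 for Fabp4, and the interaction from -0.01 to 0.33 for Cd36 and -0.24 to 0.00 for Fabp4.

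Over all genes, calls for irradiation numbered 485 in PTH mice (200 with sex, 1148 with array weights), 442 in vehicle mice (211 without irradiated vehicle replicate 2, 1149 with array weights, 762 without irradiated PTH replicate 3) and 1216 averaged (822 to 2517). Centring on housekeeping genes put the median change of all genes in vehicle mice at -0.15, against -0.03, and the calls there at 193 higher and 373 lower, against 241 and 201. Averaged, these calls were 395 and 1033, against 500 and 716. With 3 arrays a group, changes near the median standard error could not be resolved, and larger ones also went uncalled. In vehicle mice 0.89 ± 0.29 for Dgat2 and 0.85 ± 0.276 for Fasn did not pass.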

Other observations

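Fatty acid oxidation, the pathway that consumes what the synthesis enzymes make, was higher after irradiation for some genes. Of 13 genes measured, irradiation raised 1 in PTH mice and 3 in vehicle mice. Averaged over both treatments it raised 6 of the 13, where 6.1% of all genes were called. In vehicle mice 10 of the 13 had all irradiated arrays above all nonirradiated ones, against 8.95% of all genes. In PTH mice 2 did, against 8.93%. Pdk4, a kinase that spares glucose in favour of fatty acids, rose by 1.18 in PTH mice (adjusted p = 0.0461) and by 1.74 in vehicle mice (adjusted p = 0.00586) in the limma fit. Hadh and Cpt2, enzymes of mitochondrial oxidation and entry, rose by 2.11 and 0.82 in vehicle mice and stood at 0.91 and 0.24 in PTH mice without passing. The list's median was 0.18 in PTH mice and 0.64 in vehicle mice. The PTH call of Pdk4 held in 3 of 12 fits that each left out 1 array, and the vehicle call of Cpt2 in 10. Of the averaged calls, those of Hadh, Pdk4 and Cpt2 held in all 12 such fits, and those of Acadm, Acaa2 and Slc25a20 in 5, 3 and 1. For PTH in irradiated mice 0 of the 13 passed, and the median was -0.33.

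Of 13 genes of sterol synthesis, which shares its regulators with fatty acid synthesis, 0 passed in either treatment alone, where 2.43% and 2.22% of all genes were called, and the medians were 0.09 in PTH mice and 0.42 in vehicle mice. At an unadjusted p under 0.05 in limma, 4 of the 13 passed in each. Of all 19938 genes, 2678 reached that level in PTH mice and 2648 in vehicle mice. Averaged over treatments, 2 rose, Idi1 by 0.82 and Sqle by 0.63, each held in 3 of 12 fits that left out 1 array. Among blood cell lists, 11 of 12 B-lineage genes fell in PTH mice and 10 of 12 in vehicle mice, with medians of -2.33 and -1.78. Of 7 megakaryocyte genes 3 and 2 fell, and of 10 erythroid genes Car1 fell in both. None of 11 stromal, 11 proliferation, 8 muscle and 8 housekeeping genes passed in either treatment.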
